A study of Homo sapiens with 9 samples.

Results

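The AP-1 transcription factor family was followed through 9 RNA-seq libraries of A375, an established human melanoma line with the genotype BRAFV600E. Its members were taken by gene symbol from the authors' gene table: JUN, JUNB, JUND, FOS, FOSB, FOSL1, FOSL2, ATF3 and BATF3. All 9 had a row among the 18430 genes of the table, and all 9 were among the 13989 genes that passed the filter on low counts. The vemurafenib group received 10 µM vemurafenib, which blocks mutant BRAF kinase, over 3 days. The cisplatin group was exposed to 2 µM cisplatin, a platinum drug that crosslinks DNA, for 1 day. Both were then kept without drug and collected on day 7, and the control group stayed in normal culture throughout. Each group had 3 libraries. All came from 1 cell line, and dose, exposure and time off drug differed between the drugs, so the effect of the drug itself cannot be told apart from that of schedule. The labels do not say that replicates were separate cultures, so the p-values rest on a spread among libraries that may be technical only.

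AP-1 is not a single protein but a set of dimers built through basic leucine zippers (bZIP). JUN-type proteins pair with each other or with FOS-type proteins, whereas FOS-type proteins need a JUN-type partner to bind DNA at the element TGACTCA. ATF3 and BATF3 belong to the wider bZIP group and also pair with JUN-type proteins. FOS, FOSB, JUN, JUNB and ATF3 are immediate early genes, switched on within minutes by growth factors or stress, while FOSL1 responds to sustained ERK signalling, the pathway that mutant BRAF drives in melanoma. JUN is the main target of the stress kinases JNK.

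The 9 genes lie on 5 autosomes, and the JUN-type genes are short. In GENCODE 29 the principal transcript has 1 exon in JUN (gene 3725, 1:58780791-58784047 of GRCh38), JUNB (gene 3726, 19:12791486-12793315) and JUND (gene 3727, 19:18279694-18281622). It has 4 exons in FOS (14:75278828-75282230), FOSB (19:45467996-45475179), FOSL1 (11:65892049-65900545), FOSL2 (2:28392858-28417317) and ATF3 (1:212565407-212620777), and 3 in BATF3 (1:212686417-212699840). JUNB overlaps HOOK2 and FOSB overlaps ERCC1 on the opposite strand. FOSL2 overlaps a gene on each strand. No label says that the library marked strand, so reads from the overlapped stretches cannot be told apart.

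The sequence before the start site is shown for the 4 members with the largest changes in vemurafenib cells, because their changes went in opposite directions. The windows are the 250 bases upstream of the RefSeq start (GRCh38.p14), printed 5′ to 3′ along the gene: JUN at chr1:58784048-58784297 on the minus strand, and JUNB at chr19:12791236-12791485, FOS at chr14:75278578-75278827 and FOSB at chr19:45467746-45467995 on the plus strand. Capitals mark matches to 5 motifs and the CArG box.
JUN: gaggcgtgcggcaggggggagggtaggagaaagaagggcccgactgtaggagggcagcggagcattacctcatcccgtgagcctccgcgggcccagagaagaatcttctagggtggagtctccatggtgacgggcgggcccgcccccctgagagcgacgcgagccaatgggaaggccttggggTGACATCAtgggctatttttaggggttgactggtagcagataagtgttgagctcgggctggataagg
JUNB: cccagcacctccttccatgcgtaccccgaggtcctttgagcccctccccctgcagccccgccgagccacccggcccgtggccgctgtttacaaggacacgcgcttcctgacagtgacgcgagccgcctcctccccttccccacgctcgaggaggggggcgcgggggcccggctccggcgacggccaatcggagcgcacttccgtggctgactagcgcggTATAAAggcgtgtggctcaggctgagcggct
FOS: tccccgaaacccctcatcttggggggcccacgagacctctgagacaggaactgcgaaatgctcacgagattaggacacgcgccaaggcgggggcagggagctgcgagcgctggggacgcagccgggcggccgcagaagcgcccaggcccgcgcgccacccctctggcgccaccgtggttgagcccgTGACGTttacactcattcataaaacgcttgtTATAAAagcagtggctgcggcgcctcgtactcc
FOSB: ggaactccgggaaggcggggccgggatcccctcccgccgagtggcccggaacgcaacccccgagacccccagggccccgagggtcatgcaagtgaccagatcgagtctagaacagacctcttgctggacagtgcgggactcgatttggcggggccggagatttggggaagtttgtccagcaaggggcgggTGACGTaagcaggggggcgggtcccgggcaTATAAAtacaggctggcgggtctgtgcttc
The motifs, searched on both strands, were the AP-1 element TGACTCA, the CREB-type element TGACGTCA, the variant found in the JUN promoter (TGACATCA), the shorter CREB-type form TGACGT, which lies within the full one, and the TATA box (TATAAA). JUN, the member that rose, held TGACATCA starting 67 bases before the start and no TATAAA. JUNB, FOS and FOSB, which fell, each held TATAAA, at 31, 33 and 30 bases before the start. FOS and FOSB also held TGACGT, at 64 and 60 bases. Among 35116 promoter windows of the same length TGACATCA was in 2.37%, TGACGT in 7.1%, TATAAA in 10.7%, TGACGTCA in 1.65%, TGACTCA in 4.2% and the CArG box in 1.16%. Windows were found for 7 of the 9 members (not FOSL1 or BATF3). None of the 7 held TGACTCA or a CArG box within these 250 bases, and sites further upstream were not searched. TGACGTCA was in JUND, and TGACATCA was in JUN and ATF3. TGACGT was in 4 of them (JUND, FOS, FOSB and FOSL2), so also in members that did not pass in vemurafenib cells. TATAAA was in 4 as well (JUNB, FOS, FOSB and ATF3). In ATF3, which did not pass either, it lay 230 bases before start site 2 and was absent at start site 1. These are matches of letters and not tests of binding.

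Library totals lay between 14481020 and 16038475 estimated counts. Of the melanoma and melanocyte markers, SOX10 was high in every library (778.7 to 1190 CPM), while the pigment cell genes MLANA and TYR were at most 0.4 CPM. The glial and melanocytic gene S100B averaged 268.0 CPM in vemurafenib and 136.4 CPM in cisplatin cells, against 15.1 CPM in control cells (log2 changes 4.15 and 3.17). MITF, the melanocyte master regulator, rose in vemurafenib cells (log2 change 1.20), and the pigment gene PMEL, at most 5.29 CPM, rose in cisplatin cells (log2 change 1.33), where SOX10 fell by 0.34. Markers of blood (PTPRC, CD3E, CD14) and epithelium (EPCAM, CDH1, KRT5) were below the count filter. All 11 markers of other cell types summed to 16.1 to 19.6 CPM in vemurafenib, 16.5 to 28.6 CPM in cisplatin and 9.32 to 13.9 CPM in control libraries. Of the 5 that were tested, the matrix genes LUM (log2 changes 2.03 and 2.05) and DCN (1.74 and 1.41) rose in both treated groups. COL1A1, PECAM1 and VWF fell in vemurafenib cells (-1.61, -5.00 and -1.32) and did not pass in cisplatin cells. The part of such cells in the results was not tested. In these bulk samples more cells with a transcript and more RNA per cell cannot be told apart.

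In untreated cells the family was carried by JUNB, FOSL1 and FOS. On the per-length scale of TPM, which allows genes to be compared, control libraries held 315.8 to 357.9 TPM of JUNB, 207.2 to 265.9 TPM of FOSL1 and 193.6 to 285.4 TPM of FOS. FOSB followed with 98.0 to 155.5 TPM and JUND with 63.0 to 70.3 TPM. JUN, the founding member, was low, at 22.9 to 37.1 TPM. ATF3 (10.3 to 30.6 TPM), a stress-induced repressor and activator, and FOSL2 (10.0 to 26.9 TPM) came next, and BATF3, known from dendritic cells and lymphoma, was last at 2.48 to 3.65 TPM. The ranges of neighbours in this order overlapped for FOSL1 and FOS, for JUN and ATF3, and for ATF3 and FOSL2. The 9 genes together summed to 1079 ± 129 TPM (SD, n = 3).

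The order of levels was different in each treated group. In vemurafenib cells FOSL1 came first with 154.3 TPM on average, followed by JUNB with 123.6, JUN with 104.6 and FOS with 98.2 TPM. Each of these overlapped its neighbour in range over the 3 libraries, and so did the rest of the order down to FOSL2. In cisplatin cells JUNB led with 378.2 TPM, FOS followed with 226.3 TPM, and FOSL1 came after them with 99.2 TPM. FOSL1 did not overlap FOS there. The summed level of the 9 genes was 617.9 ± 77.7 TPM in vemurafenib cells, below every control library, and 968.7 ± 318 TPM in cisplatin cells, where the libraries ranged from 690.1 to 1315 TPM.

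**Figure D1:**
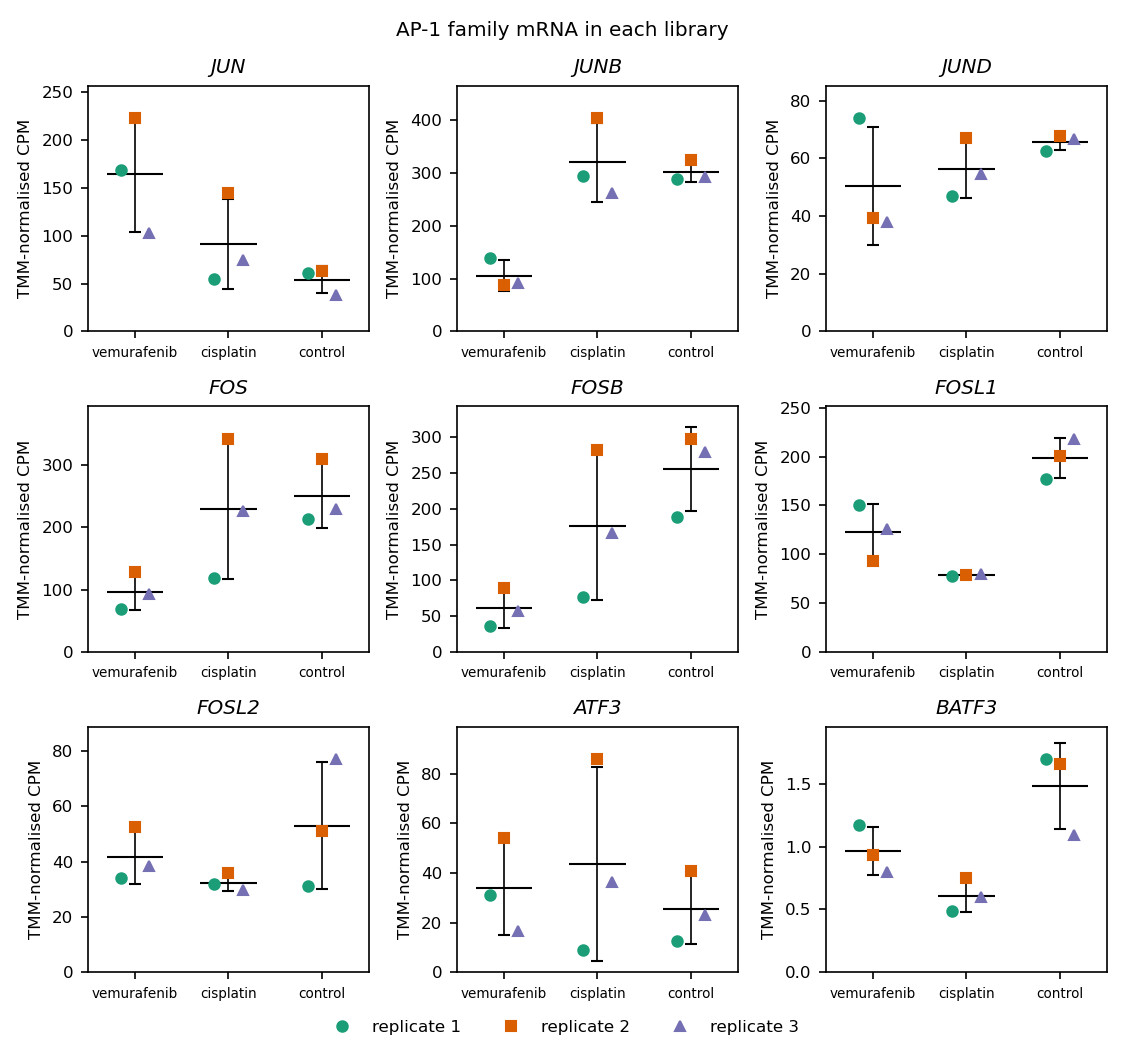
TMM-normalised CPM (y axis, linear from 0) of each AP-1 gene in the vemurafenib, cisplatin and control libraries. Symbols are single libraries by replicate number, and lines and bars are the mean ± SD of 3. JUN was 102.5 to 223.1 CPM in vemurafenib and 37.7 to 63.3 CPM in control libraries, and replicate 2 was the highest for JUN, FOS, FOSB and ATF3 in each group.

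Vemurafenib against control asked which members differed from untreated cells on day 7. No library came from an earlier day, so how long a difference had lasted was not measured. JUN rose while its close relative JUNB fell, and FOS, FOSB and FOSL1 fell with it. JUND, FOSL2, ATF3 and BATF3 did not pass the test. In all, 5 of 9 members were called, 1 higher and 4 lower, at an adjusted p under 0.05 (edgeR quasi-likelihood, Benjamini-Hochberg over all tested genes). The same rule called 44.9% of all tested genes, 22.0% as higher and 22.9% as lower. The same 5 members had groups that did not overlap, against 52.8% of all genes. The number of called members was thus close to the rate for all genes, and what follows concerns which members moved and in which direction.

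JUN had 169.0, 223.1 and 102.5 CPM in the vemurafenib libraries, against 61.5, 63.3 and 37.7 CPM in the control libraries. CPM here are TMM-scaled, and values are given in replicate order. Every vemurafenib library lay above every control library. The fitted rise was 3.04-fold (log2 change 1.61, SE 0.36, adjusted p = 0.00338 by edgeR). Libraries of the same number gave log2 ratios of 1.46, 1.82 and 1.44.

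JUNB, often an antagonist of JUN in growth control, had 138.8, 87.0 and 90.7 CPM in vemurafenib libraries, against 288.3, 323.4 and 292.6 CPM in control libraries. The highest vemurafenib library held less than any control. JUNB fell to 0.35 of the control level (log2 change -1.51, SE 0.20, adjusted p = 8.21e-05 by edgeR). JUND, the JUN-type member usually expressed at a steady level, had 74.0, 39.4 and 38.0 CPM in vemurafenib libraries, against 62.5, 67.6 and 66.6 CPM in control libraries. Replicate 1 stood above all 3 controls and replicates 2 and 3 below them. The log2 change was -0.38 (SE 0.23, adjusted p = 0.197 by edgeR). Without vemurafenib replicate 1, it was -0.76 (adjusted p = 0.000317).

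The make-up of the JUN-type genes follows from the rise of JUN and the fall of JUNB, so it is not separate evidence. JUN made up 30.2%, 48.9% and 30.1% of the summed TPM of the JUN-type genes in vemurafenib libraries, against 8.59%, 7.99% and 5.33% in control libraries. These values did not overlap. The exact two-sided permutation test gave p = 0.1, the smallest that 3 against 3 libraries allow. The ratio of JUN to JUNB was 0.87 ± 0.42 in vemurafenib cells and 0.095 ± 0.024 in control cells (SD, n = 3 each, exact permutation p = 0.1).

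Among the FOS-type genes, FOSB had the largest fitted fall. FOSB had 35.9, 88.9 and 57.2 CPM in vemurafenib libraries, against 188.8, 298.2 and 279.0 CPM in control libraries. The groups did not overlap, although libraries within the vemurafenib group differed by up to 2.48-fold. FOSB fell to 0.24 of the control level (log2 change -2.07, SE 0.42, adjusted p = 0.00191 by edgeR). FOS had 68.4, 127.6 and 93.1 CPM in vemurafenib libraries, against 212.6, 310.0 and 229.4 CPM in control libraries. Its groups were apart as well. FOS fell to 0.38 of the control level (log2 change -1.38, SE 0.33, adjusted p = 0.00513 by edgeR), with -1.64, -1.28 and -1.30 in libraries of the same number.

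FOSL1, which encodes FRA-1, fell by less. It had 149.9, 93.5 and 125.4 CPM in vemurafenib libraries, against 177.0, 200.3 and 218.4 CPM in control libraries. No vemurafenib library reached the lowest control. The level was 0.62 of control (log2 change -0.69, SE 0.15, adjusted p = 0.00312 by edgeR). Without replicate 2 of every group the log2 change was -0.52 and the call was lost (adjusted p = 0.0584). FOSL2, which encodes FRA-2, had 34.0, 52.7 and 38.3 CPM in vemurafenib libraries, against 31.1, 51.0 and 77.2 CPM in control libraries. The controls spread over 2.48-fold and enclosed the vemurafenib values (log2 change -0.35, SE 0.27, adjusted p = 0.314 by edgeR). Without control replicate 1 FOSL2 passed with a log2 change of -0.62 (adjusted p = 0.042), and without control replicate 3 the log2 change was 0.0067.

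The FOS-type genes together summed to 302.7 ± 47.9 TPM in vemurafenib cells and 620.9 ± 98.2 TPM in control cells (SD, n = 3 each). These libraries did not overlap (exact permutation p = 0.1). FOSL1 made up 65.8%, 37.8% and 53.6% of that sum in vemurafenib libraries, against 40.7%, 33.8% and 40.2% in control libraries. The 2 ranges overlapped (exact permutation p = 0.3). The ratio of FOS-type to JUN-type TPM was 1.10 ± 0.28 in vemurafenib cells and 1.42 ± 0.17 in control cells, also with overlap (exact permutation p = 0.2). With summed CPM in place of TPM the ratio was 1.05 ± 0.30 in vemurafenib and 1.80 ± 0.29 in control cells. The gap thus depended on the scale, and the CPM ratio was not tested. Of 21 such tests of sums and ratios none could go below 0.1, adjusted or not. Of these quantities only the FOS-type to JUN-type ratio was in the plan of tests.

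ATF3 had 31.2, 54.2 and 16.8 CPM in vemurafenib libraries, against 12.7, 40.7 and 23.0 CPM in control libraries. The groups overlapped widely (log2 change 0.42, SE 0.65, adjusted p = 0.632 by edgeR), and the sign turned without vemurafenib replicate 2 (log2 change -0.097). BATF3 was near the count filter, with 18, 15 and 13 counts in vemurafenib libraries, against 26, 25 and 17 in control libraries. Its log2 change was -0.61 (SE 0.30, adjusted p = 0.118 by edgeR).

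**Figure D2:**
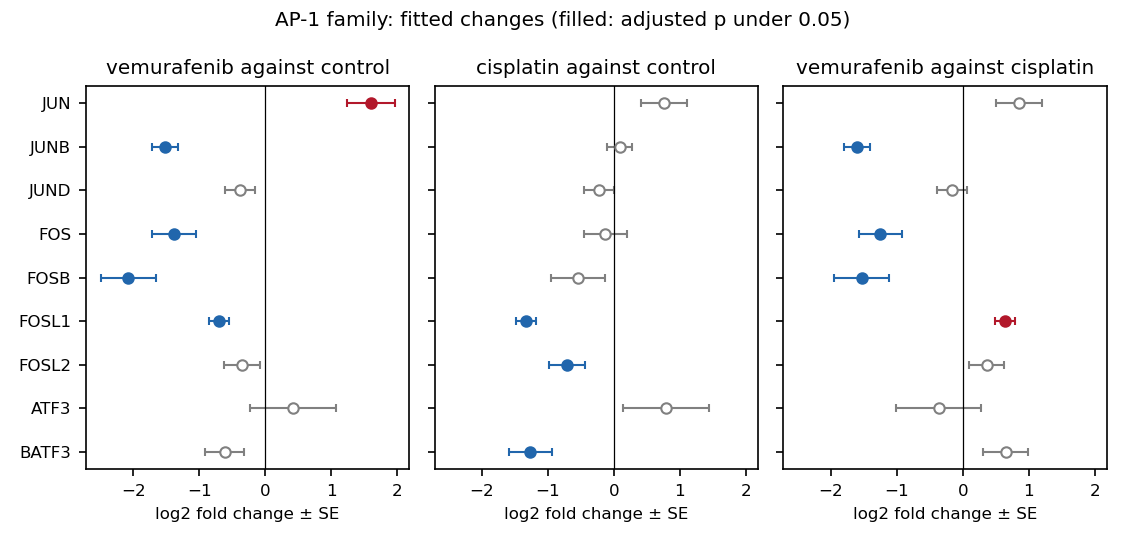
Fitted log2 fold change ± SE (x axis) of each AP-1 gene (rows) in the 3 comparisons, with filled symbols where the adjusted p was under 0.05. JUN stands to the right at 1.61 and FOSB to the left at -2.07 in vemurafenib cells, while FOSL1 has the lowest called value (-1.33) in cisplatin cells.

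Cisplatin against control gave a different selection of members. FOSL1, BATF3 and FOSL2 fell, none rose, and JUN, JUNB, JUND, FOS, FOSB and ATF3 did not pass. The 3 called members of 9 compare with 46.3% of all tested genes called, 23.5% as lower. Groups did not overlap for 2 members, FOSL1 and BATF3, against 67.0% of all genes. The share of members that differed was thus no higher than that of all genes.

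FOSL1 had 78.0, 78.7 and 80.0 CPM in cisplatin libraries, against 177.0, 200.3 and 218.4 CPM in control libraries. The cisplatin libraries were within 1.03-fold of each other and all under the controls. FOSL1 fell to 0.40 of the control level (log2 change -1.33, SE 0.15, adjusted p = 3.58e-05 by edgeR), and this call was kept in all 19 alternatives. BATF3 had 7, 11 and 9 counts in cisplatin libraries, against 26, 25 and 17 counts in control libraries. It fell by 1.27 on the log2 scale (SE 0.33, adjusted p = 0.00769 by edgeR), from few reads. Without replicate 2 of every group it had an adjusted p of 0.069.

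FOSL2 had 31.8, 35.8 and 29.6 CPM in cisplatin libraries, against 31.1, 51.0 and 77.2 CPM in control libraries. The lowest control lay within the cisplatin range, so the groups overlapped. The log2 change was -0.71 (SE 0.27, adjusted p = 0.0482 by edgeR). The call was lost in 11 of 19 alternatives, among them without control replicate 3, the highest library, where the log2 change was -0.33 (adjusted p = 0.28). Without control replicate 2 the adjusted p was 0.0899, without vemurafenib replicate 3 it was 0.0518, and without cisplatin replicates 1, 2 or 3 it was 0.112, 0.0762 and 0.135.

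FOS and FOSB spread widely between cisplatin libraries. FOS had 118.8, 342.2 and 226.0 CPM in cisplatin libraries, against 212.6, 310.0 and 229.4 CPM in control libraries. FOSB had 77.1, 282.6 and 166.2 CPM in cisplatin libraries, against 188.8, 298.2 and 279.0 CPM in control libraries. In both genes replicate 1 was the lowest cisplatin library and lay under every control. Replicate 3 was within the control range for FOS and under it for FOSB, and replicate 2 was above the controls for FOS and within their range for FOSB. The log2 changes were -0.13 (SE 0.32, adjusted p = 0.765 by edgeR) for FOS and -0.54 (SE 0.40, adjusted p = 0.296) for FOSB. With replicate number as a block FOSB passed (log2 change -0.70, adjusted p = 0.00993 by edgeR), though the labels name no pairs. ATF3 ranged from 8.93 CPM in replicate 1 to 86.0 CPM in replicate 2, with 36.6 CPM in replicate 3. That is a 9.63-fold spread within the group, and the log2 change against control of 0.78 (SE 0.65, adjusted p = 0.35 by edgeR) was -0.16 without cisplatin replicate 2.

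JUN had 55.0, 144.7 and 75.1 CPM in cisplatin libraries, against 61.5, 63.3 and 37.7 CPM in control libraries. Replicates 2 and 3 were above all controls and replicate 1 was not (log2 change 0.76, SE 0.35, adjusted p = 0.1 by edgeR). It passed without cisplatin replicate 1, with a log2 change of 1.02 (adjusted p = 0.0388), and with only the 2 groups compared (adjusted p = 0.044). It also passed with replicate number as a block (log2 change 0.71, adjusted p = 0.0262). Without cisplatin replicate 2 the log2 change was 0.26 (adjusted p = 0.532). JUNB had 294.2, 403.6 and 261.7 CPM in cisplatin libraries, against 288.3, 323.4 and 292.6 CPM in control libraries, with a log2 change of 0.086 (SE 0.19). JUND had 47.1, 67.0 and 54.7 CPM in cisplatin libraries, against 62.5, 67.6 and 66.6 CPM in control libraries, with a log2 change of -0.22 (SE 0.23). Neither passed (adjusted p = 0.739 and 0.45 by edgeR). A member that did not pass is not thereby shown to be unchanged. For JUN above (0.76, SE 0.35) neither a change nor its absence was established.

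The ratio of FOS-type to JUN-type TPM was 0.62, 0.94 and 1.02 in cisplatin libraries, against 1.23, 1.49 and 1.54 in control libraries. All cisplatin values lay under the controls (exact permutation p = 0.1). JUNB made up 40.2 ± 7.6% of the family's summed TPM in cisplatin cells and 31.3 ± 2.0% in control cells (SD, n = 3 each). This share was not tested and depends on the other members too. JUNB itself did not pass, while FOSL1 averaged 99.2 TPM in cisplatin and 235.8 TPM in control cells.

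**Figure D3:**
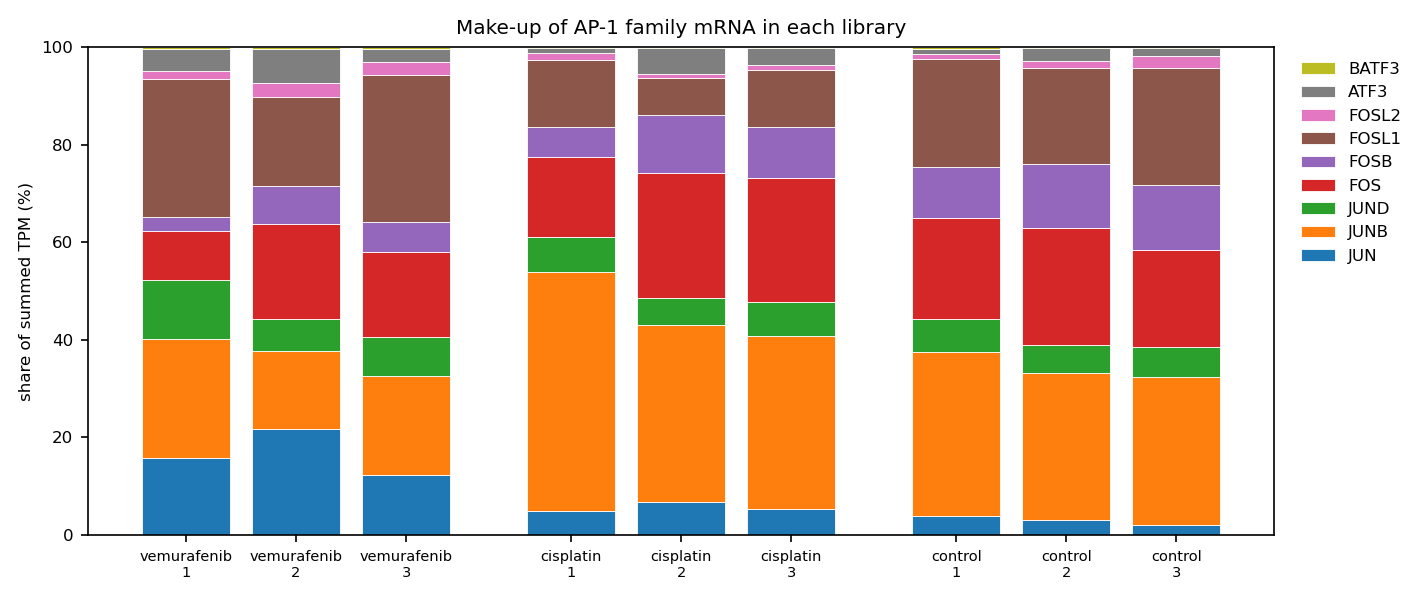
Share of the summed TPM of the 9 AP-1 genes held by each gene (y axis, percent) in every library (x axis, by group and replicate). JUN holds 12.2% to 21.6% in vemurafenib and 2.06% to 3.80% in control libraries, and JUNB 35.5% to 49.0% in cisplatin libraries.

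Vemurafenib against cisplatin compared the treated groups directly, which differed in dose, exposure and time off drug as well as in drug. Below, 'between the drugs' means between these groups. JUNB, FOS and FOSB were lower in vemurafenib cells and FOSL1 was higher. These 4 of 9 members compare with 43.7% of all tested genes called. JUNB, FOSL1 and BATF3 did not overlap between the groups, against 54.0% of all genes. JUNB was 105.5 ± 28.9 CPM in vemurafenib cells and 319.9 ± 74.3 CPM in cisplatin cells (SD, n = 3 each), a log2 change of -1.60 (SE 0.20, adjusted p = 5.21e-05 by edgeR). FOSL1 was 123.0 ± 28.3 CPM in vemurafenib cells and 78.9 ± 1.0 CPM in cisplatin cells, a log2 change of 0.64 (SE 0.15, adjusted p = 0.00548). FOS was lower in vemurafenib cells, with a log2 change of -1.25 (SE 0.33, adjusted p = 0.00925), and so was FOSB, with -1.53 (SE 0.42, adjusted p = 0.0109), where the highest vemurafenib library of each exceeded the lowest cisplatin library. Without cisplatin replicate 2 the FOSB call was lost (adjusted p = 0.0605).

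JUN did not pass between the drugs. It was 164.9 ± 60.4 CPM in vemurafenib cells and 91.6 ± 47.1 CPM in cisplatin cells, a log2 change of 0.85 (SE 0.35, adjusted p = 0.0697 by edgeR). Without cisplatin replicate 2 it was 1.34 (adjusted p = 0.00837), and without vemurafenib replicate 3 it was 1.07 (adjusted p = 0.0233). With replicate number as a block it was 0.86 (adjusted p = 0.0106). Without vemurafenib replicate 2 it was 0.55 (adjusted p = 0.246). The share of JUN among the JUN-type genes did not overlap, at 30.1% to 48.9% in vemurafenib and 7.93% to 14.1% in cisplatin libraries (exact permutation p = 0.1). JUND, FOSL2, ATF3 and BATF3 did not pass (adjusted p = 0.601, 0.302, 0.675 and 0.145). JUND passed without vemurafenib replicate 1 (log2 change -0.54, adjusted p = 0.00352).

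A further pattern cut across the groups. In JUN, FOS, FOSB and ATF3 the library numbered 2 was the highest in vemurafenib, cisplatin and control cells alike. For ATF3 it held 2.26, 3.78 and 2.28 times the mean of the other libraries of its group, and for FOS 1.58, 1.98 and 1.40 times. JUNB, JUND and FOSL2 were highest in replicate 2 in 2 of the 3 groups, BATF3 in 1 and FOSL1 in none. Of the 22 other immediate early genes 4 had the full pattern, in all 3 groups: EGR1, NR4A2, DUSP1 and PPP1R15A, chosen after their values were seen. The full pattern was found in 3.04% of all tested genes. The labels do not say what the numbers share, and the part of any shared handling was not tested. Without these 3 libraries the log2 changes in vemurafenib against control were 1.45 for JUN, -1.45 for FOS and -2.33 for FOSB, with adjusted p = 0.0114, 0.00917 and 0.00381.

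By pattern over the 9 libraries, measured as the root mean square difference of centred log2 CPM among 13227 genes of at least 1 CPM, the genes most like JUN were USP2 (0.33) and IL11RA (0.38). JUNB was closest to MAFK (0.17), a small MAF protein that is itself a bZIP factor, and to the ion channel gene TRPV4 (0.20). FOSB was closest to FOS (0.35). FOS was closest to COL1A1 (0.30), a collagen gene at 2.25 CPM. FOSL1 was closest to DPF1 (0.12) and HOXA4 (0.13), FOSL2 to YEATS2 (0.20) and HK2 (0.23), and BATF3 to SLC3A2 (0.16) and IL22RA1 (0.18). The second match was FAM149A (0.34) for FOS and ZSWIM5 (0.45) for FOSB.

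Of the 22 other immediate early genes tested, which share upstream signals with FOS, 13 fell in vemurafenib cells, none rose and 9 did not pass. Over all tested genes 22.0% were called higher and 22.9% lower in vemurafenib cells. In cisplatin cells these shares were 22.7% and 23.5%, and between the drugs 23.0% and 20.8%. The same shares stand beside every list that follows. The early genes had a median log2 change of -0.64 in vemurafenib cells, against 0.01 over all tested genes. EGR1, a zinc finger factor induced through ERK, was 34.7 CPM in vemurafenib and 286.4 CPM in control cells on average, a log2 change of -3.04. EGR2 and EGR3 fell as well, with log2 changes of -3.24 and -2.83. In cisplatin cells 3 rose and 6 fell, with a median of -0.23. The 3 that rose were EGR2, at 67.5 CPM in cisplatin and 17.7 CPM in control cells (log2 change 1.93), ZFP36 and BTG2 (the last pair named after their values were seen). GADD45B and KLF2 fell, with log2 changes of -1.59 and -1.54. Between the drugs 14 were lower and 2 higher in vemurafenib cells, the median was -0.94, and EGR2 stood furthest apart with a log2 change of -5.17. IER3 was lower in vemurafenib cells, with a log2 change of -2.51.

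Genes that AP-1 is known to activate were counted from a list chosen with earlier results of these libraries known, so it is not independent evidence. Of 25 genes 20 were tested. In vemurafenib cells 14 fell and 3 rose, with a median log2 change of -1.61. Over all tested genes 22.9% were called lower and 22.0% higher there. CSF2, a colony-stimulating cytokine, and the gelatinase MMP9 fell, at -6.26 and -4.74 on the log2 scale. Higher were 3 genes: CCL2, a chemokine at 218.4 CPM in vemurafenib and 9.92 CPM in control cells, HBEGF and MMP3, of which the last pair was chosen after their values were seen. In cisplatin cells 12 fell and 2 rose, with a median of -0.94, against 23.5% of all tested genes called lower and 22.7% higher. MMP9 and CSF2 fell, with log2 changes of -5.46 and -4.45. TIMP1, a protease inhibitor, rose to 9143 CPM in cisplatin cells, against 1336 CPM in control cells, and HBEGF, an EGFR ligand chosen after its value was seen, rose by 1.40. Between the drugs 4 were higher and 9 lower in vemurafenib cells (median -0.18), with TIMP1 at -3.94, CCL2 at 3.86 and the stromelysin MMP10 at -3.53. Promoter windows were found for 14 genes of the list, and 4 of them held TGACTCA. Among the other bZIP factors 4 of 20 genes held it as well. Of all 35116 windows 4.2% held it, a share counted per window and not per gene. These counts were not tested against each other and do not show binding.

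**Figure D4:**
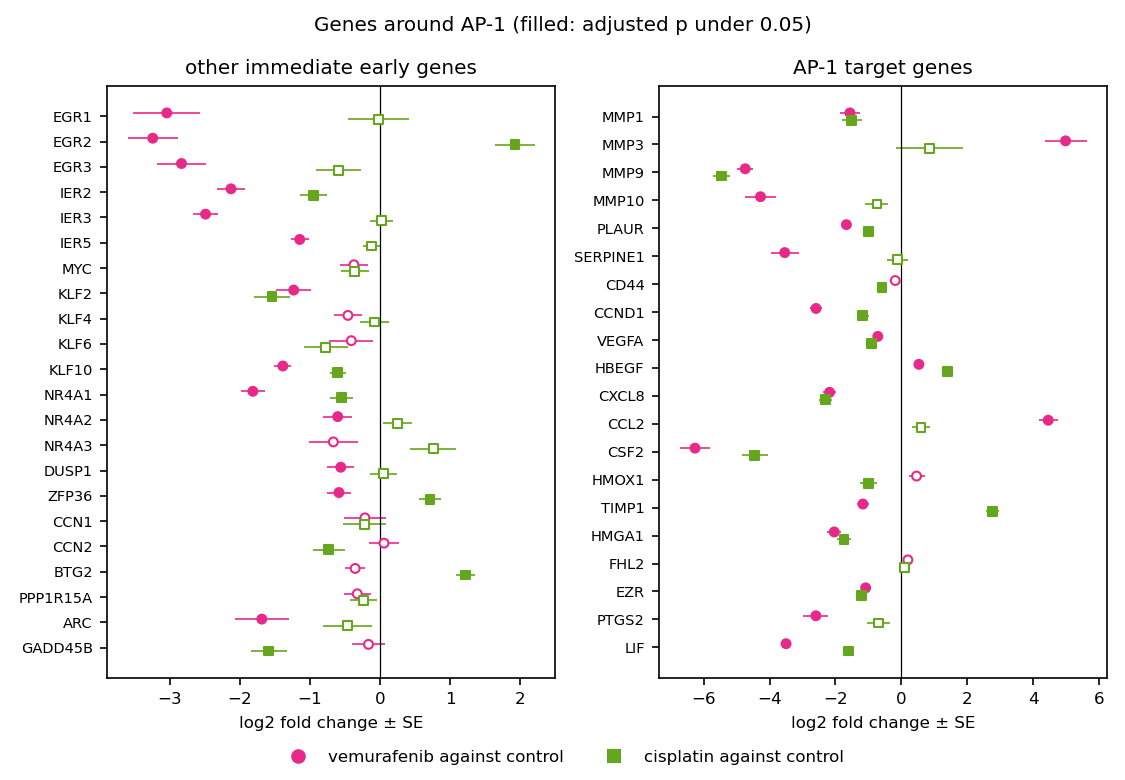
Log2 fold change ± SE (x axis) of the other immediate early genes (left) and of known AP-1 targets (right), with a row per gene, for vemurafenib (circles) and cisplatin (squares) against control, filled where the adjusted p was under 0.05. EGR1, EGR2 and EGR3 lie between -3.24 and -2.83 in vemurafenib cells, while EGR2 lies at 1.93 in cisplatin cells.

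Other bZIP factors, among them possible partners of JUN, split in both directions. Of 24 tested, 6 rose and 9 fell in vemurafenib cells (median log2 change -0.04), and 6 rose and 6 fell in cisplatin cells (median 0.17). Over all tested genes 22.0% were called higher and 22.9% lower in vemurafenib cells, and 22.7% and 23.5% in cisplatin cells. The cisplatin counts were near these shares. MAF, a large MAF protein, rose in both, to 289.9 CPM in vemurafenib and 175.8 CPM in cisplatin cells, against 47.7 CPM in control cells (log2 changes 2.60 and 1.88). The small MAF genes MAFF and MAFK fell in vemurafenib cells, with log2 changes of -1.74 and -1.55. In cisplatin cells CREB5 rose by 1.52 and ATF4, the effector of the integrated stress response, fell by 0.80. Both also passed in vemurafenib cells, with log2 changes of 1.28 for CREB5 and -0.80 for ATF4. MAFF fell in cisplatin cells as well (-0.71), where MAFK did not pass (0.078). Between the drugs 4 were higher and 6 lower in vemurafenib cells (median -0.11), with CEBPD at 1.74, MAFK at -1.63 and CREM at -1.10.

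Kinases of the MAP kinase cascade act upstream of FOS and JUN. Of 23 tested, 8 fell, none rose and 15 did not pass in vemurafenib cells (median log2 change -0.24), where 44.9% of all tested genes were called. The log2 change was -2.26 for MAP3K5, which encodes the stress kinase ASK1, -1.13 for RPS6KA1, an ERK-activated kinase, and -1.10 for MAPK3, which encodes ERK1. Without vemurafenib replicate 1, 11 fell and 2 rose. In cisplatin cells 11 fell and 2 rose (median -0.26), against 23.5% of all tested genes called lower and 22.7% higher. The log2 changes there were -2.54 for MAP2K6, a p38 activator, -1.17 for MAP3K1 and -1.12 for RPS6KA3. The 2 that rose were MAPKAPK2 and RPS6KA2, chosen after their values were seen. Lower expression of MAPK3 (-1.10), MAP3K5 (-0.76) and RPS6KA1 (-0.70) was called after cisplatin too, so it was not particular to vemurafenib cells. RPS6KA3 in turn also passed in vemurafenib cells (-0.74), whereas MAP2K6 and MAP3K1 did not pass there. Between the drugs 6 were higher and 3 lower in vemurafenib cells (median 0.00), with MAP2K6 at 2.56, MAP3K5 at -1.49 and MAPKAPK2 at -1.04. Of the 6 genes for SRF and its partners, which act on the FOS promoter, 2 fell and 1 rose in vemurafenib cells (median -0.17): ELK3 at -1.03, ELK1 at -0.29 and MRTFA at 0.56. In cisplatin cells ELK3 (-0.65) and SRF (-0.30) fell and ELK4 (0.42) rose (median -0.04). Between the drugs 3 were lower in vemurafenib cells, ELK3 (-0.38), ELK4 (-0.37) and ELK1 (-0.36, chosen after its value was seen), and MRTFA was higher by 0.40 (median -0.18).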

How the data were processed

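RNA of 9 samples was sequenced, with random hexamer priming and circularised single-strand libraries per the labels' protocols. Per the submitters' processing notes, HISAT2 2.0.4 and hg38 were used. Which program counted reads is not given in the sources used here. In 1 table the authors deposited estimated counts, TPM and FPKM per gene. The deposited estimated counts were rounded, since 13.6% to 14.1% of each library's values were fractional (tolerance 1e-06). Deposited TPM served for shares, ratios and alternatives, and deposited FPKM for an alternative ratio.

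Genes were filtered with filterByExpr (13989 of 18430 kept), scaled by TMM and fitted with edgeR 4.0.16 (R 4.3.3) in 1 model holding a mean for each of the 3 groups (6 residual degrees of freedom, biological coefficient of variation 0.139), with two-sided quasi-likelihood F tests adjusted by Benjamini-Hochberg over all tested genes at 0.05. The SE is the log2 change divided by the square root of F. Sums and ratios were compared by exact permutation tests (scipy 1.17.1). Alternatives used DESeq2 1.42.0, limma 3.58.1, other scalings and filters, left-out libraries and replicate number as a block. Of these steps only the main edgeR fit was tested on simulated data. Gene identifiers matched RefSeq (GRCh38.p14) for 18153 genes.

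The members and all gene lists were chosen with earlier results of these data known. Named besides the members are up to 3 called genes per list and comparison with the largest change (at least 5 CPM in the higher group) and the 2 genes closest in pattern to each member called against control. Deviations from group means correlated between same-numbered vemurafenib and control libraries at 0.18, 0.14 and 0.19 across genes (minimum for pairing 0.1), so these may be paired, from the data and not from the labels. The block changed no member's call in that comparison. Of the members BATF3 has the lowest counts, 7 to 26 per library, and so the largest counting error.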

Additional observations from a re-analysis of the deposited data

How the results depend on the processing

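Every member's log2 change was recomputed under 19 alternatives per comparison. Of 171 values each, 166 kept their side of the threshold and sign in vemurafenib against control, 150 in cisplatin against control and 160 in vemurafenib against cisplatin. Left-out single libraries gave 5 to 6, 2 to 3 and 4 to 5 called members, and 5063 to 7672, 5237 to 8642 and 4767 to 7157 called genes. Without replicate 2 of every group, chosen after seeing the data, there were 3411, 3703 and 3547 called genes, with fewer samples in the fit, and 1 called member in cisplatin against control. JUND between the drugs was then 0.14, ATF3 between the drugs 0.072 and JUNB after cisplatin -0.063. Signs that turned belonged to changes that did not pass: FOSL2 in vemurafenib against control was 0.0067 without control replicate 3, and ATF3 was -0.097 without vemurafenib replicate 2. After cisplatin FOS was 0.050 without control replicate 2 and 0.18 without cisplatin replicate 1. Without cisplatin replicate 2, JUNB was -0.12 and ATF3 -0.16 against control, and ATF3 between the drugs was 0.58. With limma it was 0.11 on log2(TPM + 1) and 0.13 on log2(TPM + 0.1). The cause was not tested. Over left-out single libraries FOSL2 ranged from -0.62 to 0.0067 and ATF3 from -0.097 to 0.93 in vemurafenib against control, FOS from -0.54 to 0.18 and ATF3 from -0.16 to 1.29 in cisplatin against control, and ATF3 from -0.89 to 0.58 between the drugs. With summed CPM the FOS-type to JUN-type ratio was 1.05 in vemurafenib, 1.09 in cisplatin and 1.80 in control cells. On that scale vemurafenib cells stood slightly under cisplatin cells, the reverse of the order by TPM. With left-out libraries the TPM ratio lay at 0.96 to 1.24 in vemurafenib, 0.78 to 0.98 in cisplatin and 1.36 to 1.52 in control cells.

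With replicate number as a block, cisplatin against control had 5 called members (JUN 0.71, adjusted p = 0.0262, and FOSB -0.70, adjusted p = 0.00993, were added), and JUN between the drugs passed (adjusted p = 0.0106). Here the numbers correlated at 0.21, 0.081 and 0.13 for cisplatin with control libraries, each library best with its own number, and at 0.17, 0.013 and 0.10 for vemurafenib with cisplatin libraries, so they were not taken as pairs. With total counts as scaling, 60.0% of called genes were higher in vemurafenib cells than in control cells, against 49.1% with TMM, the median log2 change of all genes was 0.11, and no call of a member changed in that comparison; limma on log2(TPM + 1) gave 59.3%. Of 513 list counts 484 stayed within 1.5 times. BATF3 is limited by depth.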

Other observations

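Genes that control the turnover of JUN and FOS proteins changed in part. Of 9 tested, 1 rose and 4 fell in vemurafenib cells (median log2 change -0.09), 1 rose and 2 fell in cisplatin cells (median -0.07), and none was higher and 4 were lower in vemurafenib than in cisplatin cells (median -0.02). These comparisons called 44.9%, 46.3% and 43.7% of all tested genes. TRIB1, a pseudokinase scaffold for the ubiquitin ligase COP1, was 24.2 CPM in vemurafenib, 104.8 CPM in cisplatin and 82.5 CPM in control cells, a log2 change of -1.77 in vemurafenib against control (adjusted p = 7.45e-06 by edgeR). GSK3B, a kinase that marks JUN for degradation, fell in both, with log2 changes of -1.45 in vemurafenib and -0.43 in cisplatin cells. FBXW7, the ligase subunit that recognises phosphorylated JUN, rose by 0.61 in vemurafenib and 0.97 in cisplatin cells. USP28 fell in both, by 0.61 in vemurafenib and 0.90 in cisplatin cells. ITCH was lower in vemurafenib than in cisplatin cells (-0.53). Without control replicate 2 or control replicate 3, 3 were called in vemurafenib against control, and 2 without replicate 2 of every group. With total counts as scaling 2 rose and 2 fell there.

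Genes of the integrated stress response, a route by which ATF3 is induced, did not move together. Of 10 tested, 3 fell and none rose in vemurafenib cells (median log2 change 0.15), and 3 rose and 5 fell in cisplatin cells (median -0.23). These comparisons called 44.9% and 46.3% of all tested genes. Without vemurafenib replicate 1, 4 rose and 4 fell in vemurafenib cells. CHAC1, VLDLR and TRIB3 fell in vemurafenib cells, with log2 changes of -1.57, -1.42 and -0.39. In cisplatin cells CHAC1, DDIT4 and VLDLR fell, with log2 changes of -1.51, -1.31 and -1.25. Between the drugs DDIT4 and ASNS were higher in vemurafenib cells, by 1.22 and 0.85, and SESN2 was lower (-0.76). Of the 10, 3 were higher and 2 lower there (median -0.04).

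The ratio of FOS to FOSB TPM, which was not in the plan of tests, varied less within a group than either gene. It was 3.35, 2.54 and 2.88 in vemurafenib libraries and 2.72, 2.15 and 2.42 in cisplatin libraries, against 1.98, 1.84 and 1.46 in control libraries. Both treated groups lay above every control library (exact permutation p = 0.1 for each, the smallest that 3 against 3 allow).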
